A study of Mus musculus with 8 samples.

Results

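MHC class II pathway genes were followed in the ascending aorta of Marfan syndrome model mice treated with DT-061, a small-molecule activator of protein phosphatase 2A, or with its vehicle. The members are 9 genes chosen by symbol: the invariant chain gene Cd74, the surface chain genes (H2-Ab1, H2-Aa, H2-Eb1), the peptide-exchange genes H2-DMa, H2-DMb1 and H2-DMb2, and the genes H2-Oa and H2-Ob of the H2-O protein. All 9 were found, by Ensembl identifier, among the 1329 genes of the deposited expression table. By its name the table is restricted to genes found significant between treatments, so every member had already been selected on the contrast described here, and the tests below are descriptions rather than independent evidence.

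There were 8 libraries of poly-A RNA. In 4 of them the mice carried Fbn1mgR/mgR, an allele pair that lowers fibrillin-1, and received DT-061 by mouth at 5 mg/kg, given 2 times a day over 4 weeks from an age of 5 weeks. The other 4 came from Fbn1mgR/mgR mice on the same schedule of the vehicle solution, so both groups carry the disease genotype and no wild-type aorta is part of the comparison. The labels do not say whether each library is 1 mouse, and the spread between libraries may in part be technical.

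Class II molecules present peptides from endosomes to CD4+ T cells. Dendritic cells, macrophages and B cells make them constantly, and many other cells do so after exposure to interferon gamma, which switches on the transactivator CIITA. The invariant chain escorts the newly made α and β chains to the endosome, where cathepsins cut it down to a fragment in the peptide groove. H2-DM exchanges that fragment for antigenic peptide, and H2-O, best known from B cells and thymus, restrains H2-DM.

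The genes of the family share a promoter layout in which an X box is followed at a fixed distance by a Y box, a reversed CCAAT motif, and these boxes recruit the factors that CIITA joins. RefSeq promoter windows on GRCm38.p6, reaching from 250 bases before to 50 bases after a start, were available for 7 members. Of these, 6 hold the letters AAC (part of the X box) followed on the gene's own strand by GATTGG (in the Y box), which starts 27 to 30 bases after the start of AAC. The stretches are shown because this spacing is common to genes whose levels differed by orders of magnitude in the aorta. Capitals mark AAC and GATTGG.
H2-Aa: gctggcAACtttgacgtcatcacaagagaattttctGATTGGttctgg
H2-Eb1: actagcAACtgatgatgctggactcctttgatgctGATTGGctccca
H2-DMb1: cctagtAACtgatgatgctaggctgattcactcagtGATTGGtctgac
H2-DMb2: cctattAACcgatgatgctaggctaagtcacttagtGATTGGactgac
H2-Oa: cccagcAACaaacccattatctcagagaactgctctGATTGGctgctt
H2-Ob: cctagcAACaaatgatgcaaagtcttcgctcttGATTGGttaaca

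On GRCm38 these stretches lie at chr17:34287861-34287908 (minus strand, H2-Aa) and, on the plus strand, at chr17:34305772-34305818 (H2-Eb1), chr17:34153093-34153140 (H2-DMb1), chr17:34145122-34145169 (H2-DMb2), chr17:34092299-34092346 (H2-Oa) and chr17:34238814-34238858 (H2-Ob). GATTGG begins 44 to 91 bases before the RefSeq transcription start of its window in these 6. The gene spans given below are from GENCODE and include other starts, so the stretches of H2-DMb1, H2-DMb2 and H2-Oa lie partly or wholly inside those spans. The pair of letters with this spacing was chosen after the members' promoters had been read, and on either strand it occurs in 300 of 32544 distinct promoter windows (0.922%). GATTGG alone, on either strand, occurs in 16.1% of the windows and in those of all 7 members. In H2-DMa, the seventh member, neither of 2 windows holds the spaced pair, which says only that these letters are not there. A match describes the sequence and does not show that a factor binds.

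Values are FPKM (fragments scaled to gene length and to sequencing depth), so levels can be compared between genes. Differences were tested with limma on log2(FPKM + 1). Its p-values were adjusted by the Benjamini-Hochberg method across all 1329 genes, and 0.05 was the threshold. A log2 change is the mean of DT-061 libraries less that of vehicle libraries on that scale, and "fell" and "rose" mean past the threshold. For a check of the tissue label, 6 of 8 smooth muscle markers were in the table, with a summed level of 15871 to 24051 FPKM in DT-061 libraries and 8623 to 13695 FPKM in vehicle libraries. Depth, recovered from the steps between low values, was about 14100000 to 22200000 fragments per library. DT-061 library 3 and vehicle library 4 stood apart in the class II genes, and the members' changes are also given without them. They stood apart over the whole table too. Log2 values of DT-061 library 3 correlated at 0.965 to 0.975 with the other DT-061 libraries, against 0.992 to 0.995 among those. Vehicle library 4 correlated at 0.890 to 0.956 with the other vehicle libraries, against 0.962 to 0.976 among those. The highest smooth muscle sum was also in DT-061 library 3.

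All 9 class II genes were lower in DT-061 aortas, and all 9 fell by limma. Over all genes of the table, 95.4% passed, 65.0% as lower and 30.4% as higher with DT-061, so the count alone sets the members apart little. Fold differences of the group means ran from 2.73-fold lower for H2-DMa to 8.39-fold lower for H2-Ob, with a median of 4.82-fold. The members' median log2 change was -1.50, against -0.58 over all genes of the table and -0.87 over its lower genes. In 8 of the 9 the DT-061 values lay wholly below the vehicle values, whereas 48.2% of the table's genes were separated in that direction and 78.3% in either. For H2-Oa and H2-Ob this separation came from the scaling to depth. By the recovered depths, each stood at equal proportions of fragments in DT-061 library 1 and vehicle library 4.

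**Figure D1:**
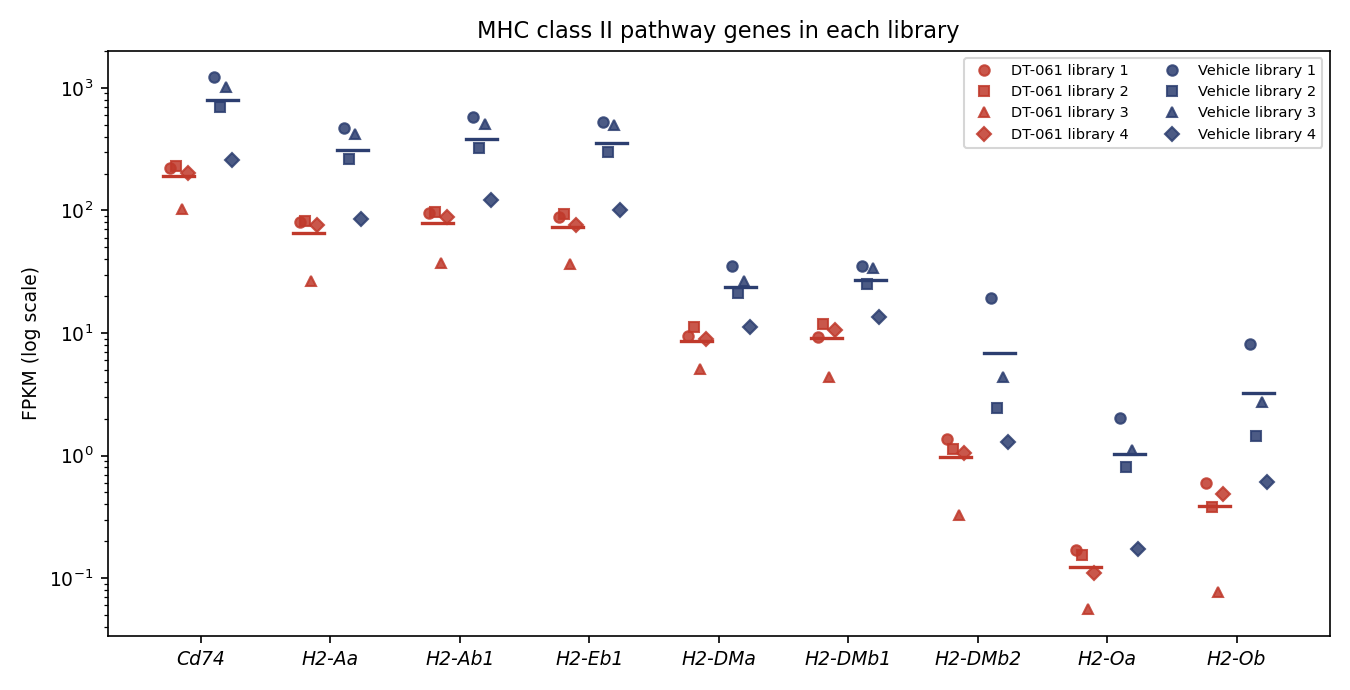
FPKM of the 9 class II genes in each library, on a log scale, with 4 DT-061 libraries (red) left of 4 vehicle libraries (blue) for each gene and short lines at the group means. Vehicle library 4 (blue diamond) is the lowest vehicle library for every gene and lies just above the DT-061 libraries, except for H2-DMb2, where it lies among them, and DT-061 library 3 (red triangle) is the lowest of all 8.

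Cd74 was the most abundant member. This gene (ENSMUSG00000024610, GRCm38 chromosome 18, 60803848 to 60812652) had 223, 232, 103 and 202 FPKM in DT-061 libraries 1 to 4, against 1218, 704, 1024 and 256 FPKM in vehicle libraries 1 to 4. The groups did not overlap, but vehicle library 4 was only 1.10-fold above the highest DT-061 library, whereas vehicle libraries 1 to 3 held at least 704 FPKM. The means were 190.1 ± 59.6 FPKM with DT-061 and 800.4 ± 420.4 FPKM with vehicle (mean ± SD, 4 libraries each). Cd74 changed by -1.92 ± 0.50 on the log2 scale (SE; limma adjusted p = 0.0175), a 4.21-fold lower mean.

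The 3 surface chain genes moved almost in step. H2-Aa, the α chain of the I-A molecule (ENSMUSG00000036594, chromosome 17, 34282744 to 34287823), had 80.6, 81.4, 26.4 and 75.8 FPKM in DT-061 libraries 1 to 4, against 473, 262, 421 and 84.9 FPKM in vehicle libraries 1 to 4. Vehicle library 4 exceeded the highest DT-061 library by 3.46 FPKM, so the separation of the groups rested on that narrow gap. The log2 change of H2-Aa was -2.08 ± 0.60 (SE; limma adjusted p = 0.0184).

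H2-Ab1 encodes the β chain that pairs with H2-Aa (ENSMUSG00000073421, chromosome 17, 34257689 to 34269419). Its values were 95.3, 96.6, 37.3 and 87.6 FPKM in DT-061 libraries 1 to 4, against 581, 321, 505 and 122 FPKM in vehicle libraries 1 to 4. Among the members it had the widest relative gap between the groups, with vehicle library 4 at 1.26 times the highest DT-061 library. It also had the largest log2 change of the 9, -2.13 ± 0.53 (SE; limma adjusted p = 0.0169), and ranked 47 among the falls of the table by that measure. Its place among the 9 depends on the 1 added to FPKM. On log2 FPKM without it, H2-Ob, H2-Oa and H2-DMb2 changed by -2.79, -2.72 and -2.25, against -2.14 for H2-Ab1.

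H2-Eb1, the β chain of the I-E molecule (ENSMUSG00000060586, chromosome 17, 34305867 to 34316674), had 88.4, 93.5, 36.3 and 76.7 FPKM in DT-061 libraries 1 to 4. In vehicle libraries 1 to 4 it had 526, 301, 499 and 100.1 FPKM. The order of the libraries was the same as for Cd74 within each group, and the groups did not overlap. Its log2 change was -2.09 ± 0.55 (SE; limma adjusted p = 0.0176). The α chain partner of H2-Eb1, H2-Ea, which some mouse haplotypes do not express, was not analysed here.

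The 4 abundant genes together made up 96.5% of the members' summed FPKM. Their sum was 488, 504, 203 and 442 FPKM in DT-061 libraries 1 to 4, against 2798, 1588, 2448 and 563 FPKM in vehicle libraries 1 to 4. The mean sum was 409 ± 140.1 FPKM with DT-061 and 1849 ± 997 FPKM with vehicle (mean ± SD, 4 libraries each). Without DT-061 library 3 and vehicle library 4, the mean with DT-061 was 4.48-fold lower for Cd74, 4.86-fold for H2-Aa, 5.03-fold for H2-Ab1 and 5.13-fold for H2-Eb1. Each of the 4 kept its call in all alternatives run, including every omission of 1 library.

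**Figure D2:**
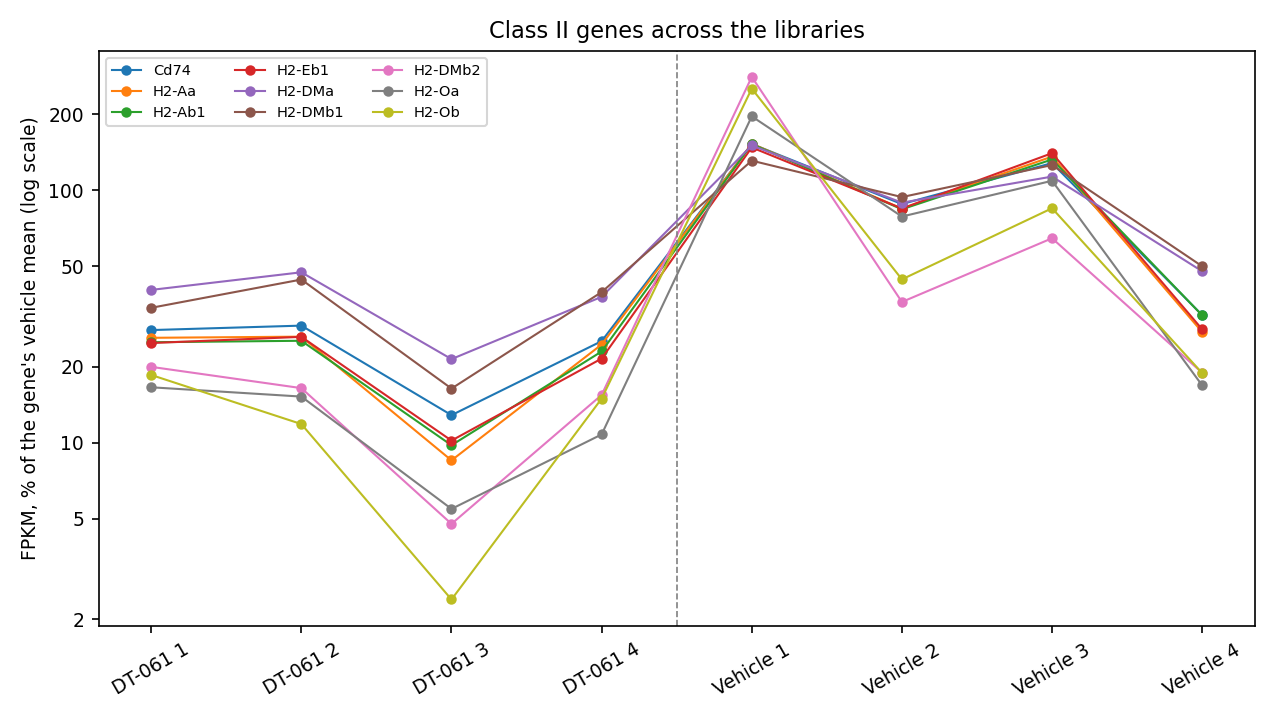
Level of each class II gene in each library as a percentage of that gene's vehicle mean, on a log scale, with DT-061 libraries left of the dashed line and vehicle libraries right of it; lines join the points of a gene and imply no order. DT-061 library 3 is at 2.39% to 21.4% of the vehicle mean, vehicle library 4 at 16.8% to 49.9%, and vehicle library 1 is highest for every gene, up to 281% for H2-DMb2.

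The peptide-exchange genes were expressed at a small fraction of the surface chains. H2-DMa (ENSMUSG00000037649, chromosome 17, 34119541 to 34139101) had 9.49, 11.1, 5.05 and 8.91 FPKM in DT-061 libraries 1 to 4, against 35.4, 21.0, 26.7 and 11.2 FPKM in vehicle libraries 1 to 4. The gap between the groups was 0.10 FPKM, between vehicle library 4 and DT-061 library 2. H2-DMa had the smallest fold difference of group means among the 9 (2.73-fold). Its log2 change was -1.29 ± 0.35 on the log2 scale (SE; limma adjusted p = 0.0181).

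H2-DMb1, a β chain of H2-DM (ENSMUSG00000079547, chromosome 17, 34153072 to 34160230), had 9.22, 11.9, 4.42 and 10.6 FPKM in DT-061 libraries 1 to 4, against 35.3, 25.3, 33.9 and 13.5 FPKM in vehicle libraries 1 to 4. The groups did not overlap, and vehicle library 4 again came nearest to the DT-061 libraries. The log2 change of H2-DMb1 was -1.46 ± 0.37 (SE; limma adjusted p = 0.0171). The ratio of H2-DMa to H2-DMb1 FPKM was 0.986 ± 0.131 with DT-061 and 0.864 ± 0.0958 with vehicle (mean ± SD, 4 libraries each), so both chains of H2-DM were close to equal in level in both groups.

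H2-DMb2, a second β chain gene (ENSMUSG00000037548, chromosome 17, 34143307 to 34151555), was the exception to the separation. It had 1.36, 1.12, 0.325 and 1.05 FPKM in DT-061 libraries 1 to 4, against 19.2, 2.46, 4.40 and 1.29 FPKM in vehicle libraries 1 to 4. Vehicle library 4 lay below DT-061 library 1, and vehicle library 1 was 4.36 times the next highest vehicle library. The log2 change of H2-DMb2 was -1.50 ± 0.62 (SE; limma adjusted p = 0.0459). That call ended when 1 of 6 libraries was left out, any DT-061 library (1 to 4) or vehicle library 2 or 3 (by limma, adjusted p = 0.068, 0.075, 0.108, 0.076, 0.053 and 0.082, given in that order). Without vehicle library 1 the change was -0.86, and the fold difference was 2.81 in place of 7.07.

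The genes of H2-O were the least abundant. H2-Ob (ENSMUSG00000041538, chromosome 17, 34238903 to 34254414) had 0.600, 0.383, 0.0774 and 0.483 FPKM in DT-061 libraries 1 to 4, against 8.17, 1.43, 2.74 and 0.610 FPKM in vehicle libraries 1 to 4. Vehicle library 1 stood well above the rest, and vehicle library 4 exceeded the highest DT-061 library by 0.0102 FPKM. Scaled by the recovered depths, vehicle library 4 and DT-061 library 1 both stood at a proportion of 23 fragments, so that gap came from the scaling. H2-Ob changed by -1.31 ± 0.49 on the log2 scale (SE; limma adjusted p = 0.0326). Leaving out any 1 DT-061 library, or vehicle library 3, ended its call (limma adjusted p between 0.054 and 0.078). Without vehicle library 1 its log2 change was -0.84 and its fold difference 4.13 in place of 8.39.

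H2-Oa (ENSMUSG00000024334, chromosome 17, 34092340 to 34095234) had 0.170, 0.156, 0.0560 and 0.110 FPKM in DT-061 libraries 1 to 4, against 2.01, 0.805, 1.12 and 0.173 FPKM in vehicle libraries 1 to 4. The groups did not overlap, but vehicle library 4 was almost level with DT-061 library 1. These values rest on few fragments. Scaled by the recovered depths, they stand in the whole-number proportions of 3, 3, 1 and 2 fragments in DT-061 libraries and 40, 22, 24 and 3 fragments in vehicle libraries. At these levels the pseudocount of 1 compresses the log2 change of H2-Oa, -0.77 ± 0.26 (SE; limma adjusted p = 0.0237), which was -2.03 with a pseudocount of 0.1. The call was lost without DT-061 library 3 or vehicle library 3 (limma adjusted p = 0.053 and 0.055).

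With DT-061 library 3 and vehicle library 4 both left out, all 5 of the less abundant members fell. Their log2 changes were then -1.38 for H2-DMa, -1.48 for H2-DMb1, -1.73 for H2-DMb2, -0.98 for H2-Oa and -1.56 for H2-Ob.

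The members could also be compared with each other within a library, a quantity that a library's overall scaling barely moves. H2-Ab1 was 36.3% to 43.4% of Cd74 in DT-061 libraries and 45.5% to 49.3% in vehicle libraries, without overlap. H2-Eb1 was 38.3% ± 2.18 of Cd74 with DT-061 and 43.5% ± 3.97 with vehicle, and H2-Aa was 33.6% ± 5.39 with DT-061 and 37.6% ± 3.34 with vehicle (mean ± SD, 4 libraries each). H2-DM went the other way. H2-DMa was 4.25% to 4.92% of Cd74 in DT-061 libraries, against 2.61% to 2.99% in vehicle libraries 1 to 3 and 4.40% in vehicle library 4. H2-DMb1 was 4.71% ± 0.578 of Cd74 with DT-061 and 3.77% ± 1.04 with vehicle (mean ± SD, 4 libraries each).

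None of the 8 ratios to Cd74 passed a two-sided exact permutation test over the libraries, made on log2 ratios of FPKM + 1 and adjusted over the 8. The smallest p that 4 against 4 libraries allow is 0.0286, and at least 5 of the 8 ratios would have had to reach it for any to pass after adjustment. The H2-Ab1 ratio reached it, with a difference of -0.21 on the log2 scale (exact permutation p = 0.0286, adjusted p = 0.114). The H2-Oa ratio also reached it with the pseudocount of 1, but not with 0.1 (exact permutation p = 0.571). The difference for H2-DMa was 0.63 (exact permutation p = 0.0571, adjusted p = 0.152). For H2-DMb2, H2-Oa and H2-Ob the differences of 0.42, 1.15 and 0.61 turned to -0.19, -0.11 and -0.45 with a pseudocount of 0.1, so their positive sign came from the pseudocount of 1. Without a pseudocount these genes averaged 0.483%, 0.0631% and 0.187% of Cd74 with DT-061. With vehicle they averaged 0.714%, 0.114% and 0.345%, and vehicle library 1 was highest for each, at 1.57%, 0.165% and 0.670%. A p above the threshold does not show that the members changed equally.

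**Figure D3:**
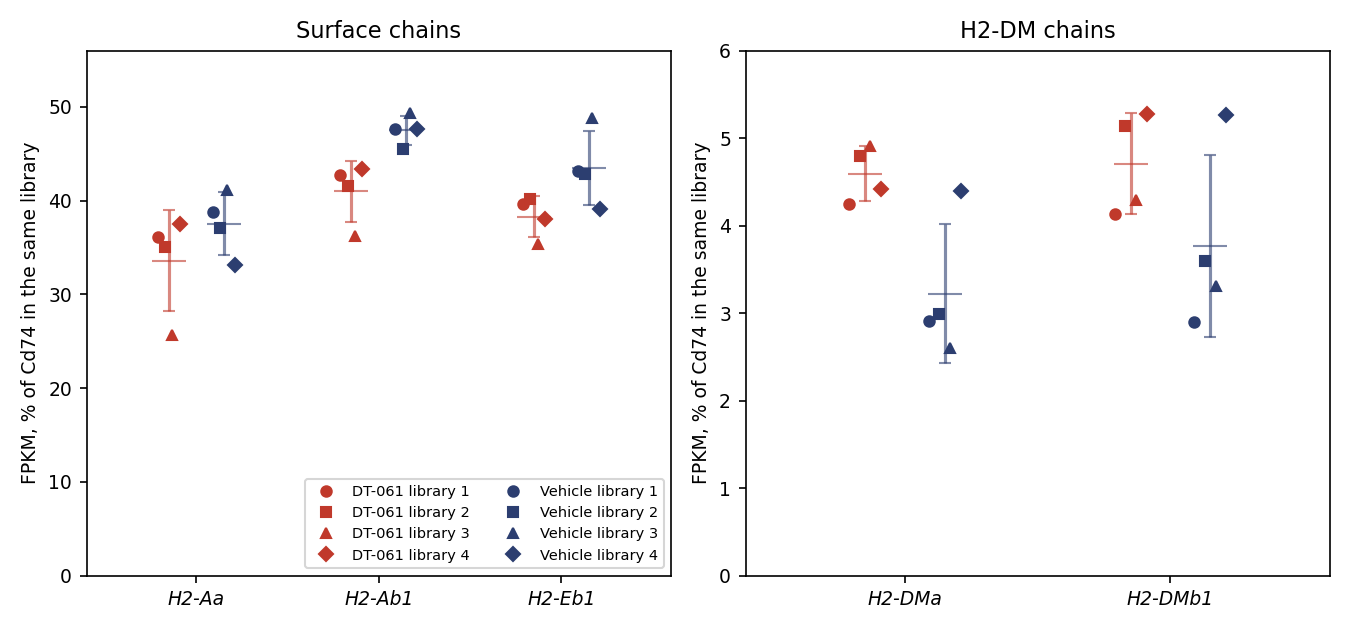
FPKM of the surface chain genes (left) and of the H2-DM chain genes (right) as a percentage of Cd74 FPKM in the same library, with DT-061 libraries in red left of vehicle libraries in blue; wide marks and bars are the mean and SD of 4 libraries. H2-Ab1 is 36.3% to 43.4% with DT-061 and 45.5% to 49.3% with vehicle, while vehicle library 4 (diamond) lies with the DT-061 libraries for the H2-DM chains.

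The 9 members stayed lower under each scaling, by smaller amounts. Rescaling each library to the same median over the table shifted all changes by a median of 0.70, and quantile normalization by 0.63, and both assume a balance that a selected table need not have. Of all calls, 31.9% were rises as deposited, 76.6% with the median rescaling and 65.3% with quantile normalization. With the median rescaling Cd74, H2-Aa, H2-Ab1 and H2-Eb1 still fell by 1.22, 1.38, 1.43 and 1.39 on the log2 scale, and H2-DMb1 fell by 0.76. H2-DMa, H2-DMb2, H2-Oa and H2-Ob were at -0.59, -0.79, -0.07 and -0.61 and did not pass. With quantile normalization H2-DMb2, H2-Oa and H2-Ob did not pass, at -0.70, -0.11 and -0.52.

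Of 23 symbols listed for other class II genes, which regulate, process or turn over the complex, 5 were in the table, and all 5 fell without overlap of the groups. The other 18 symbols, among them Marchf1 and Marchf8 as second symbols for March1 and March8, were not analysed here. Over the whole table, selected on this contrast, 65.0% of genes fell and 48.2% were separated in that direction. Ciita, the transactivator, had 1.05, 1.19, 0.472 and 1.16 FPKM in DT-061 libraries 1 to 4, against 10.2, 2.97, 3.79 and 1.40 FPKM in vehicle libraries 1 to 4. Its highest value was in vehicle library 1 and its lowest in DT-061 library 3, as for each of the 9 members. Its log2 change was -1.29 ± 0.44 (SE; limma adjusted p = 0.0247), and its call ended without DT-061 library 3 or vehicle library 3 (limma adjusted p = 0.059 and 0.052). It also ended with both rescalings, at -0.59 with the median and -0.41 with quantile normalization (limma adjusted p = 0.107 and 0.282).

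Ctss, the cathepsin that makes the last cut of the invariant chain in many antigen-presenting cells, had 50.3, 57.3, 11.0 and 57.3 FPKM in DT-061 libraries 1 to 4, against 265, 175, 153 and 66.3 FPKM in vehicle libraries 1 to 4. It was 3.75-fold lower with DT-061, with a log2 change of -1.96 ± 0.60. March1, a ubiquitin ligase that removes class II from the surface, averaged 0.819 ± 0.451 FPKM with DT-061 and 3.17 ± 1.28 FPKM with vehicle (mean ± SD, 4 libraries each). March1 did not pass with the median rescaling (-0.48) or quantile normalization (-0.24), whereas Ctss passed with both. As deposited, these 3 genes had fold differences in the range of the members.

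The aminopeptidase gene Ctsh and the carboxypeptidase gene Ctsz differed far less. Ctsh averaged 63.0 ± 5.88 FPKM with DT-061 and 84.1 ± 9.17 FPKM with vehicle, and Ctsz 140.3 ± 7.38 FPKM with DT-061 and 189 ± 16.7 FPKM with vehicle (mean ± SD, 4 libraries each). These were 1.33-fold and 1.34-fold lower, and both turned to higher when every library was rescaled to the same median (log2 changes of 0.29 and 0.28). With quantile normalization Ctsh passed and Ctsz, at -0.18, did not.

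All 12 genes of the interferon gamma axis in the table, of 22 listed, fell, with a median log2 change of -0.88. Over the whole table, selected on this contrast, 65.0% of genes fell, and its lower genes had a median of -0.87. The transcription factor gene Irf8 averaged 3.03 ± 1.35 FPKM with DT-061 and 14.1 ± 7.23 FPKM with vehicle, and the chemokine gene Cxcl9 0.607 ± 0.559 FPKM with DT-061 and 4.21 ± 2.55 FPKM with vehicle (mean ± SD, 4 libraries each). The inducible GTPase gene Iigp1 had a log2 change of -1.16 ± 0.26 and Nlrc5, the CIITA-related activator of class I genes, of -1.14 ± 0.34. With the median rescaling Iigp1 and Nlrc5 did not pass, at -0.46 and -0.44, and with quantile normalization Nlrc5 did not, at -0.24 (limma adjusted p = 0.079, 0.117 and 0.330, given in that order). Irf8 and Cxcl9 passed with both. Gbp3, chosen after its values were seen, was the 1 gene of the 12 in which the groups overlapped. Of the table's genes, 48.2% were separated with lower values in DT-061 libraries.

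Class I presentation genes fell by less than the abundant class II genes in fold terms, though the difference between the lists was not tested. All 13 in the table, of 16 listed, fell, with a median log2 change of -0.99, and in 6 of them the groups did not overlap, a share close to the 48.2% of the whole table. Of the table's genes 65.0% fell, and its lower genes had a median of -0.87. The class I heavy chain gene H2-K1 averaged 205 ± 4.93 FPKM with DT-061 and 485 ± 178 FPKM with vehicle (mean ± SD, 4 libraries each). H2-Q7, H2-Q6 and the immunoproteasome gene Psmb8 had log2 changes of -1.44, -1.16 and -1.22. The call of H2-Q6 ended when DT-061 library 4, vehicle library 2 or vehicle library 3 was left out (limma adjusted p between 0.051 and 0.052). With the median rescaling none of these 4 genes passed, at -0.74 for H2-Q7, -0.46 for H2-Q6, -0.52 for Psmb8 and -0.44 for H2-K1 (limma adjusted p = 0.074, 0.241, 0.068 and 0.159), and with quantile normalization all 4 passed. The summed FPKM of the 13 genes was 1155 to 1240.5 in DT-061 libraries and 1353 in vehicle library 4, against 2715 to 3004 in the other vehicle libraries.

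All 8 costimulation and synapse genes in the table, of 13 listed, fell, with a median log2 change of -0.77. That was a smaller change than the median of -0.87 over the table's lower genes, and 65.0% of the whole table fell. Cd80, a ligand of CD28, had 0.860, 1.69, 0.243 and 1.40 FPKM in DT-061 libraries 1 to 4, against 3.92, 2.86, 3.10 and 3.33 FPKM in vehicle libraries 1 to 4. For this gene vehicle library 4 was not low. Cd4, the co-receptor for class II on T cells, averaged 0.338 ± 0.154 FPKM with DT-061 and 2.50 ± 1.99 FPKM with vehicle (mean ± SD, 4 libraries each), and the groups overlapped. Cd5 and Cd40 had log2 changes of -0.99 and -0.69. None of these 4 genes passed with either rescaling. Cd80 was then at -0.42 and -0.19, Cd4 at -0.50 and -0.32, and Cd5 at -0.29 and -0.14, with the median and the quantile method.

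The calls of Cd4, Cd5 and Cd40 also depended on single libraries. For Cd4 the call ended when DT-061 library 1, DT-061 library 3 or vehicle library 3 was left out (limma adjusted p between 0.055 and 0.061). For Cd5 this was so of DT-061 libraries 1, 2 and 3 and of vehicle library 3 (0.0503 to 0.056). For Cd40 it was so of each DT-061 library and of vehicle libraries 2 and 3 (0.054 to 0.092). Cd40 had a log2 change of -0.42 without vehicle library 1, and turned to higher with both rescalings.

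**Figure D4:**
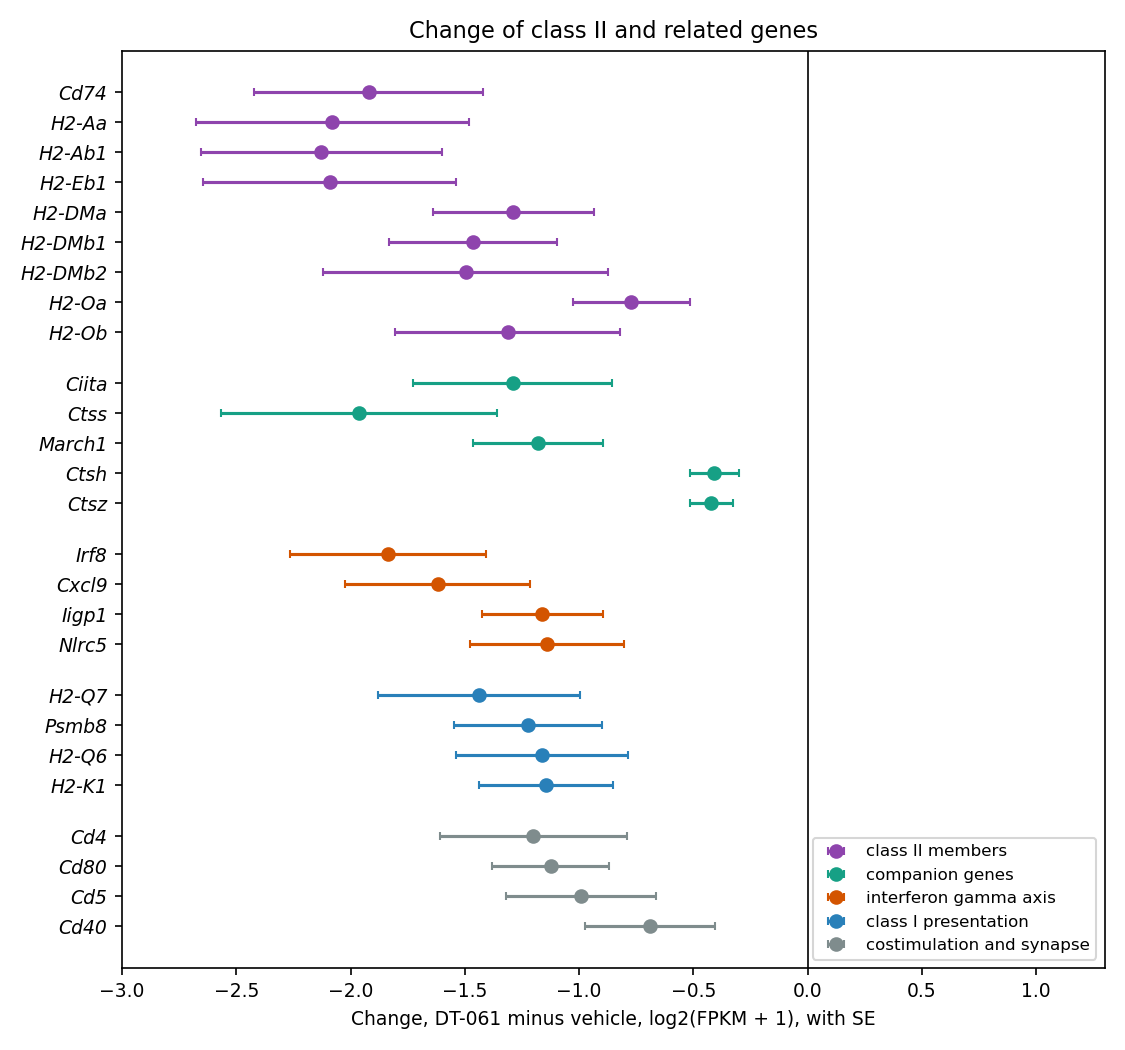
Log2 change, DT-061 minus vehicle, with its SE (limma, 4 libraries per group) for the 9 class II genes, the 5 companion genes in the table and up to 4 genes from each of 3 related lists. All points lie below 0, with H2-Ab1 at -2.13 the lowest and Ctsh at -0.41 nearest to 0.

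The markers of antigen-presenting cells and lymphocytes found in the table were lower with DT-061. Like the members, they had been selected on this contrast, in a table of which 65.0% of genes fell. The macrophage and monocyte list had 4 of 18 markers in the table (Aif1, Mpeg1, Ms4a7 and Plac8), all lower, and their summed level was 6.16 to 27.2 FPKM in DT-061 libraries and 28.2 to 138 FPKM in vehicle libraries. The dendritic cell list had 6 of 12 (Ccr7, Flt3, Fscn1, Itgax, Siglech and Xcr1), with a sum of 3.32 to 11.4 FPKM in DT-061 libraries and 13.1 to 42.3 FPKM in vehicle libraries. Xcr1 was listed at 0 in DT-061 library 3 and no other value of these lists was 0. As for class II, DT-061 library 3 was the lowest library and vehicle library 4 the lowest vehicle library in both lists.

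The B and plasma cell list had 3 of 10 markers in the table, with a summed level of 17.2 to 37.7 FPKM in DT-061 libraries and 45.5 to 951 FPKM in vehicle libraries. The 951 FPKM was in vehicle library 1, mostly from Ighm at 694 FPKM. That library also held the highest value of each of the 9 class II members, among them the outlying values of H2-DMb2 and H2-Ob. The T and NK cell list had 8 of 11, with a sum of 2.19 to 8.17 FPKM in DT-061 libraries and 6.16 to 74.9 FPKM in vehicle libraries. Of these 8, 7 fell and Cd3e did not pass, at a log2 change of -1.02. The fibroblast list had 2 of 6 in the table, both lower, with a sum of 74.2 to 130.4 FPKM in DT-061 libraries and 163 to 312 FPKM in vehicle libraries.

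The part of these cell types in the class II result was not tested. In bulk tissue, fewer cells of a type and less RNA per cell cannot be told apart. Summed over the list, class II genes were 4.46-fold lower, the 4 macrophage and monocyte markers 4.37-fold, the 6 dendritic cell markers 3.36-fold and the 13 class I genes 2.06-fold lower with DT-061. The 3 B and plasma cell markers were 11.3-fold lower, the 8 T and NK cell markers 7.78-fold and the 2 fibroblast markers 1.93-fold. The 3 B and plasma cell markers ran from 1.41-fold lower for Sdc1 to 85.7-fold for Jchain. Vehicle library 1 was at 276% of the vehicle mean for that list and at 220% for the T and NK cell list, so both sums lean on it. The table used here gave no value for the all-leukocyte marker Ptprc or for any of the 7 endothelial markers listed, so neither was analysed here.

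**Figure D5:**
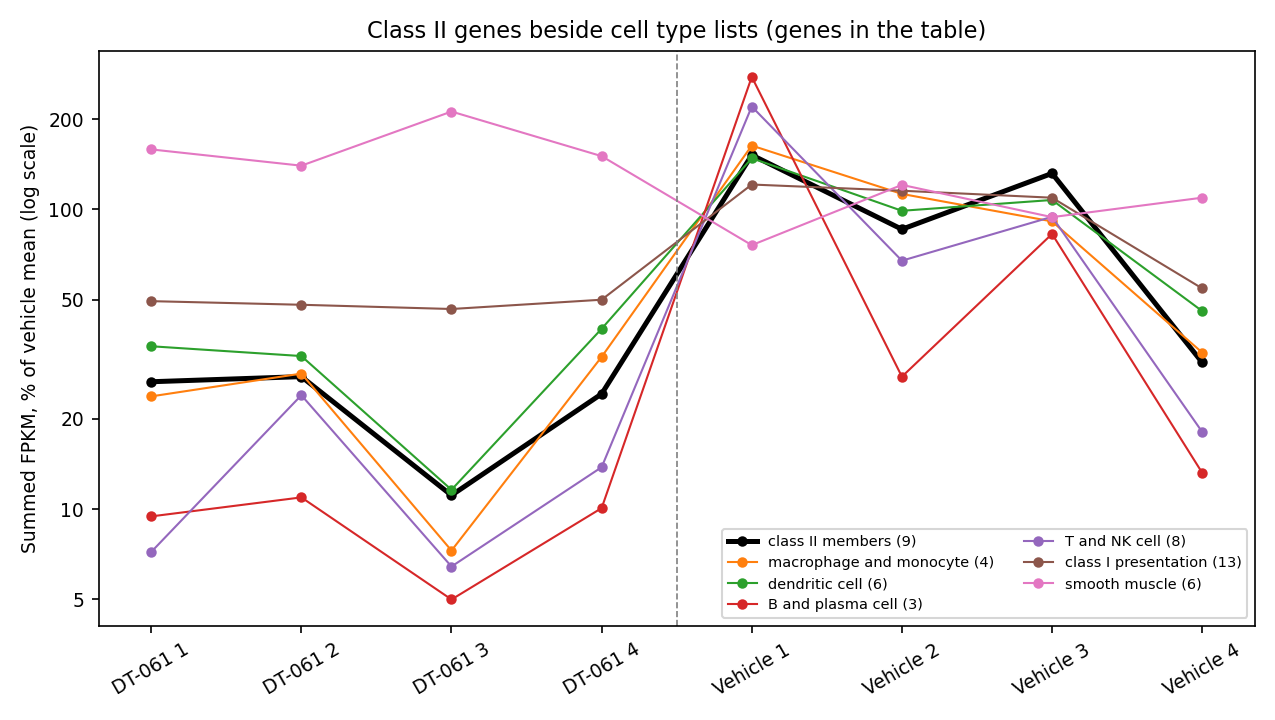
Summed FPKM of the genes in the table from each list, as a percentage of the list's vehicle mean and on a log scale, with DT-061 libraries left of the dashed line and vehicle libraries right of it; numbers in brackets are genes, and lines imply no order. Class II (black) and the macrophage and monocyte markers are at 11.1% and 7.28% in DT-061 library 3 and at 30.8% and 33.3% in vehicle library 4, where class I is at 54.5%.

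The genes outside the members whose profiles over the 8 libraries were most like the members' mean profile were Itgal, AW112010, Napsa, B4galnt1 and Ifi205. Likeness was the root mean square difference between profiles of log2(FPKM + 1), each centred on its own mean, among 1093 genes with a mean of at least 1 FPKM. It was 0.18 for Itgal, AW112010 and Napsa and 0.19 for B4galnt1 and Ifi205, against a median of 0.80 over those genes. All 5 passed with both rescalings, except Itgal with quantile normalization, at -0.58. Itgal encodes the α chain of the leukocyte integrin LFA-1, and it averaged 0.747 ± 0.432 FPKM with DT-061 and 4.28 ± 3.14 FPKM with vehicle (mean ± SD, 4 libraries each). Among the members the same measure ran from 0.20 for Cd74 to 0.54 for H2-Oa. The profiles share libraries and depth, so the values describe likeness and nothing more.

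Reads could be mixed between members in few places. None of the stretches of 150 bases, the read length, in annotated transcripts of Cd74, H2-Aa, H2-Ab1, H2-Eb1 and H2-Ob occurs in a transcript of another gene. H2-DMb1 and H2-DMb2 share 72 stretches with each other, 4.71% and 4.14% of their own. H2-DMa shares 4.85% with Brd2 and H2-Oa 5.47% with BC051537, both of which overlap them on the opposite strand. The sources used here do not say whether counting used strand, so the values of H2-DMa and H2-Oa may include reads of those genes.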

How the data were processed

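Poly-A RNA libraries from ascending aorta were sequenced as paired reads of 150 bases, per the labels' protocols. The submitters' processing notes name the mm10 build and, without the step each made, featureCounts 1.5.0-p3, HISAT2 2.0.5 and StringTie 1.3.3b. The FPKM values were made by the authors and deposited, per the file headers, as 1 table of 1329 selected genes. The sources used here do not give the tool and threshold of that selection. Symbols were matched for 1328 genes, and coordinates came from GENCODE release M21 (GRCm38, the same build).

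Differences were tested with limma 3.58.1 in R 4.3.3 on log2(FPKM + 1), with the trend and robust options and treatment as the only term. Ratios to Cd74 used an exact permutation test over all 70 splits (SciPy 1.17.1). Named genes were all members, all companion genes in the table, from each related list up to 4 genes of at least 1 FPKM on average, taken by size of change, and the 5 most like profiles. The members and lists were chosen with earlier results of these data known. In a simulation of the DT-061 and vehicle libraries (1329 genes), limma recovered 76.0% of 100 genes lowered by 1 log2 unit. It recovered 90.0% of 100 lowered by 2 and called 0.620% of the unchanged 1129. Whether these rates hold for the deposited table, selected on this contrast and with 95.4% of genes past the threshold, was not tested. Depth was the number of fragments at which FPKM times exonic length was nearest to whole. At it, 21.2% to 37.9% of low values, up to 40 fragments, lay within 0.03 of a whole number, against 5.56% to 5.80% at the median number tried. No interval is given, since the values are not counts.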

Additional observations from a re-analysis of the deposited data

Results flagged for a closer look

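A library far from the others of its group was looked for in each named gene and ratio, as the gap to the nearest library divided by the group's range on the log2 scale, against Dixon's 95% critical value for 4 libraries. Of 78 groups tested, 5 passed, where chance alone gives about 5% of groups. In 4 of the 5, DT-061 library 3 was the low one. The gap was 0.936 of the range for H2-Aa (26.4 FPKM, against 75.8 to 81.4 FPKM in the other DT-061 libraries), 0.897 for H2-Ab1, 0.919 for Ctss and 0.893 for B4galnt1. The log2 ratio of H2-Oa to Cd74, made with the pseudocount of 1, was high in the same library, with a gap of 0.860. There H2-Oa stood at 1 fragment, and without a pseudocount it was 0.0545% of Cd74, the lowest of the 8 libraries.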

How the results depend on the processing

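All 9 class II genes kept a lower level with DT-061 in every alternative that could be run, which left H2-Oa out at a minimum mean of 1 FPKM. The number that fell was 5 of 9 with the median rescaling, 6 with quantile normalization and 6 to 9 when 1 library was left out. Of the 5 companion genes, 1 fell with the median rescaling, 2 with quantile normalization, and 4 to 5 with 1 library left out. Over the table, 606 genes passed with the median rescaling and 603 with quantile normalization, of which 142 and 209 were lower, against 1268 and 864 as deposited. With 1 library left out, 942 to 1230 passed, of which 254 to 351 were higher. Without vehicle library 3, 254 were higher, against 404 with all libraries. Cd40 turned to 0.012 and 0.23 with the median and quantile scalings, and with the median scaling Ctsh turned to 0.29 and Ctsz to 0.28. With a pseudocount of 0.1 the ratios of H2-DMb2, H2-Oa and H2-Ob to Cd74 turned to -0.19, -0.11 and -0.45. The cause of these turns was not tested, apart from the lower pseudocount itself. No pairing of libraries by the replicate numbers in the titles was seen, though 4 libraries per group are too few to exclude it. Deviations of same-numbered libraries correlated at -0.47 to 0.18, and 1 of 4 DT-061 libraries was closest to its own number. With the replicate number as a block, 834 genes passed, 204 of them higher, and 8 class II genes fell, with H2-DMb2 at an adjusted p of 0.052 by limma. Without a library, the exact test of ratios could not pass, since 3 against 4 libraries allow no p below 0.0571, and 4 paired signs none below 0.125. Low counts of fragments limit H2-Oa and, less so, H2-Ob and H2-DMb2.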

Other observations

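The 8 class II members other than Cd74 lie within 224335 bases of chromosome 17 (GRCm38, 34092340 to 34316674), an interval that also holds the antigen transport and immunoproteasome genes. Of the 13 protein-coding genes annotated there, 12 were in the table, and the 4 that are not members, Tap1, Tap2, Psmb8 and Psmb9, fell as well. Of all genes of the table, 65.0% fell. Tap1, a subunit of the peptide transporter, averaged 6.80 ± 0.688 FPKM with DT-061 and 15.5 ± 6.38 FPKM with vehicle, and Tap2, the other subunit, 8.45 ± 0.450 FPKM with DT-061 and 12.2 ± 2.23 FPKM with vehicle (SD, n = 4 each). Psmb8 and Psmb9 were 2.72-fold and 2.48-fold lower, against 2.73-fold for H2-DMa, the member with the smallest difference.

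Both β chain genes of H2-DM were expressed, but in unequal proportions across the vehicle libraries. H2-DMb2 was 0.148, 0.0940, 0.0736 and 0.0990 of the H2-DMb1 level in DT-061 libraries 1 to 4, against 0.543, 0.0972, 0.130 and 0.0957 in vehicle libraries 1 to 4. Vehicle library 1 alone was high, and it was also the library with the most Ighm, 694 FPKM against 22.2 to 159.6 FPKM in the other vehicle libraries. That was not particular to Ighm. The same library was highest for all 9 members and for the macrophage and monocyte, dendritic cell, and T and NK cell sums, though not for the fibroblast sum. No test was run on this pattern, which was noticed after the values were seen.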
